A study of Homo sapiens with 4 samples.

Results

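The genes described here encode the BCL2 family, the caspases and the proteins that control them, in SW1990, an established human pancreatic adenocarcinoma line whose genotype the labels give as WT. They are a list of 37 symbols matched to the gene IDs of the deposited counts, in which 36 were found among 25798 IDs and 35 passed a filter on low counts. BCL2A1 was not analysed here, and HRK did not pass the filter. RNA was sequenced from 2 libraries of cells given 100 nM erianin for 48 h and from 2 libraries of cells given DMSO, the solvent, for the same time. Erianin, a bibenzyl from Dendrobium orchids, is studied in this series as a compound that acts on the kinases AKT and ASK1. No label says that the replicates came from separate cultures, and the p-values therefore measure only how far these libraries differ, which may be technical.

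In the mitochondrial pathway of apoptosis, BH3-only proteins bind and block the anti-apoptotic members of the BCL2 family or switch on the pore formers, and pores in the outer mitochondrial membrane release cytochrome c. Cytochrome c and APAF1 form the apoptosome, which activates caspase 9. In the death receptor pathway, FADD recruits caspase 8. Inhibitor of apoptosis proteins (IAPs) hold caspases or receptor complexes in check. Much of this control works on proteins, through cleavage, phosphorylation and binding, which transcript levels do not measure.

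The libraries held 63336545 and 59923935 counts in erianin, against 63254725 and 60798427 counts in DMSO. The keratins that mark ductal adenocarcinoma cells were abundant, with KRT8 at 5640 and 6533 CPM (counts scaled to library size) in erianin and 5250 and 5427 CPM in DMSO. All 7 epithelial markers were detected, but only the keratins were abundant. EPCAM was low, between 2.39 and 6.05 CPM, as was MUC1, between 2.81 and 5.15 CPM. CDH1 lay between 16.45 and 19.2 CPM. Summed over 6 fibroblast markers, the level was 11.2 and 14.3 CPM in erianin, against 38.5 CPM in DMSO replicate 1 and 13.4 CPM in DMSO replicate 2. The 5 matched markers of blood cells summed to at most 0.955 CPM in any library, and PTPRC was at 0 in 3 of 4. The part of these markers in the results was not tested.

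None of the 35 apoptosis genes passed the test between erianin and DMSO (edgeR, quasi-likelihood F test, Benjamini-Hochberg adjustment over 17090 genes). Among all genes 7 passed, or 0.041%, of which 2 (0.0117%) were higher and 5 (0.0293%) lower in erianin. The smallest adjusted p among the apoptosis genes was 0.575. At an unadjusted p under 0.05 there were 2 of 35, or 5.71%, against 8.1% of all genes tested. They were BAK1, with the higher level in erianin, and CASP4, with the lower level, where 2.21% of all genes were higher and 5.89% lower at this mark. In bulk RNA, a lower level from fewer cells that express a gene and from less RNA per cell cannot be told apart. DESeq2 also called 0 of 35, where it called 0.093% of all genes. With limma-voom 0 of all 17090 genes passed, so its 0 of 35 says nothing about the list. Each had 2 of 35 at an unadjusted p under 0.05, against 6.2% of all genes with DESeq2 and 9.79% with limma-voom. The call of 0 changed only when erianin replicate 1 was left out, so that erianin replicate 2 stood alone against DMSO. Erianin replicate 2 was the library least like the rest. Its Spearman's correlations over all genes tested were 0.9817 with erianin replicate 1, 0.9782 with DMSO replicate 1 and 0.9811 with DMSO replicate 2. Erianin replicate 1 correlated with those DMSO libraries by 0.9854 and 0.9865, more closely than with erianin replicate 2. Without erianin replicate 1, 11 of 35 passed, or 31.4%, against 3166 of 18116 genes tested in that fit, or 17.5%. The lone erianin library was then assumed to vary as the DMSO libraries do. For 19 of the 35 genes the 95% interval of the difference lay within 1.5-fold in either direction, so for the other 16 a change of that size was not excluded by these libraries.

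The log2 fold change (erianin over DMSO) was above 0 for 15 of the 35 genes and below 0 for 20, and its median was -0.15. Over all genes tested, 51.3% lay below 0 and the median was -0.01. When libraries were scaled by their totals alone, the median of all genes moved to -0.11 and that of the list to -0.24. In CPM, 7 genes of the list were higher in both erianin libraries than in either DMSO library and 10 were lower in both. These 17 made up 48.6% of the list, close to the 46.1% of all genes tested whose groups did not overlap (21.7% higher and 24.4% lower in erianin). The difference farthest from 0 was the -0.72 of XIAP, which rested on single libraries. It was -1.29 without erianin replicate 1, -0.32 without erianin replicate 2, -1.02 without DMSO replicate 1 and -0.33 without DMSO replicate 2. BMF was farther from 0 without erianin replicate 2, at -0.68, and CASP6 without DMSO replicate 2, at -0.81. The highest positive difference with all 4 libraries was the 0.28 of BAK1.

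**Figure D1:**
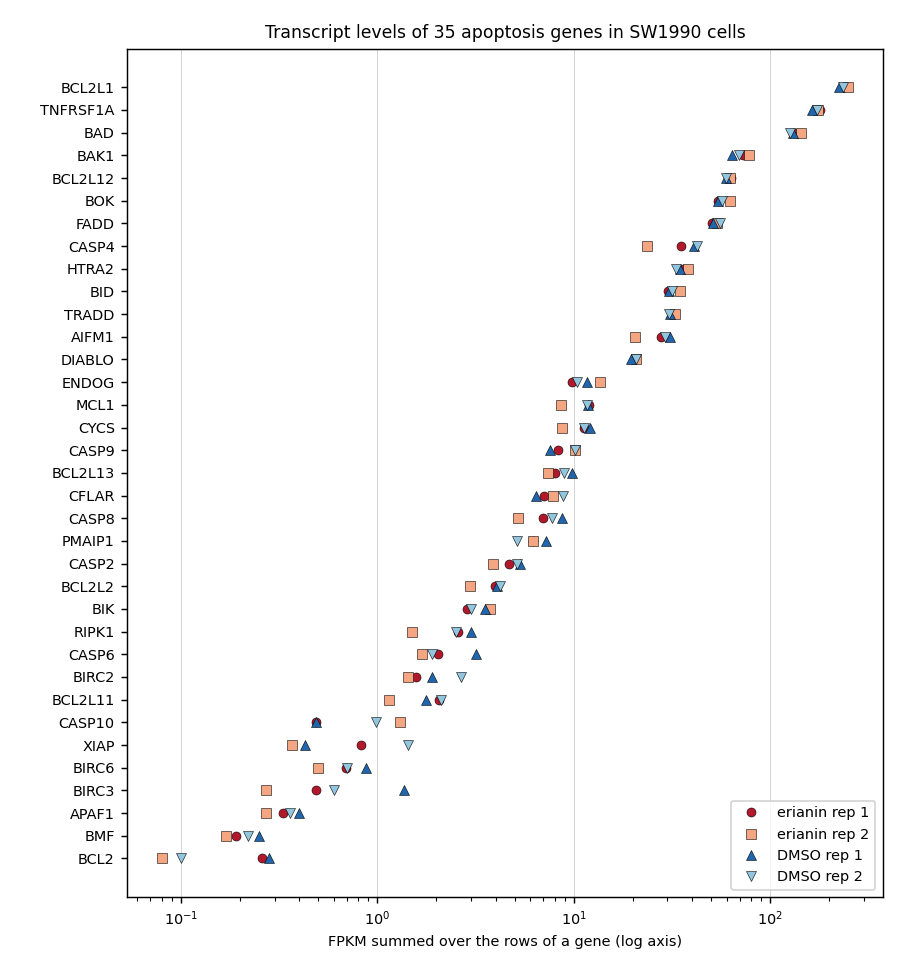
FPKM (fragments per length of transcript, scaled to library size) summed over the rows of each gene, on a log axis, for 35 apoptosis genes ordered by their mean over 4 libraries; each symbol is 1 library, with circles and squares for erianin and triangles for DMSO. BCL2L1, TNFRSF1A and BAD lie highest, BCL2, BMF and APAF1 lowest, and most neighbours in the order overlap.

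Levels of different genes can be compared per length of transcript, in FPKM. BCL2L1, which encodes the anti-apoptotic protein BCL-XL, was the most abundant of the 36, at 239.8 and 250.2 FPKM in erianin and 223.4 and 234.3 FPKM in DMSO. This was above 97.9% of all genes tested. TNFRSF1A, the receptor TNFR1, averaged 173 FPKM over the 4 libraries, and BAD, a BH3-only protein, averaged 133 FPKM. BAK1 followed with 71.1 FPKM. The ranges of these top 4 over the libraries did not overlap. From rank 5 down, most neighbours could not be ordered, as with BCL2L12, BOK and FADD at 61.3, 56.8 and 52.9 FPKM, where BCL2L12 overlapped BOK and BOK overlapped FADD. At the low end, APAF1 averaged 0.340 FPKM, BMF 0.207 FPKM and BCL2 0.180 FPKM.

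The anti-apoptotic BCL2 proteins bind BH3-only proteins and pore formers and keep the outer mitochondrial membrane closed. BCL2L1 held 93.7% and 95.6% of the summed FPKM of the 4 measured in erianin, against 93.2% and 93.6% in DMSO. BCL2L1 (ENSG00000171552, GRCh38 chromosome 20, 31664452 to 31723989, minus strand) had 760.5 and 879 CPM in erianin, against 703 and 731 CPM in DMSO. Both erianin libraries were above both DMSO libraries. Its log2 fold change was 0.19 ± 0.10 (SE; adjusted p = 0.576, edgeR), and the 95% interval ran between -0.05 and 0.43. MCL1, a short-lived guardian against NOXA and BIM, had 55.4 and 43.7 CPM in erianin, against 57.8 and 53.8 CPM in DMSO. The low value was that of erianin replicate 2, and the groups overlapped. BCL2L2, which encodes BCL-W, had a log2 fold change of -0.17 ± 0.16 (SE). Its reads can be shared with the read-through gene BCL2L2-PABPN1, at 8.53 and 11.2 CPM in erianin and 6.41 and 9.92 CPM in DMSO. BCL2 itself was barely detected, at 1.96 and 0.648 CPM in erianin, against 2.15 and 0.817 CPM in DMSO. In each group replicate 1 was more than 2-fold above replicate 2, so the difference between groups was far smaller than the spread within them.

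BAK1 encodes BAK, a pore former of the outer mitochondrial membrane. BAK1 (ENSG00000030110, chromosome 6, 33572547 to 33580293, minus strand) had 179.8 and 216 CPM in erianin, against 156 and 170.3 CPM in DMSO. All erianin values lay above the DMSO values, though erianin replicate 1 was nearer to DMSO replicate 2 than to erianin replicate 2. The log2 fold change was 0.28 ± 0.12 (SE), with an unadjusted p of 0.0417 and an adjusted p of 0.575 (edgeR). BOK, a family member with a pore-forming fold, had 162.5 and 206 CPM in erianin, against 159.8 and 167 CPM in DMSO. Only erianin replicate 2 stood above the others. BCL2L12, a less studied relative, had 85.7 and 87.7 CPM in erianin, against 79.1 and 75.3 CPM in DMSO, with little spread in either group and a log2 fold change of 0.17 ± 0.10 (SE, adjusted p = 0.591, edgeR). BCL2L13, an outer-membrane protein known as a mitophagy receptor, had a log2 fold change of -0.15 ± 0.13 (SE).

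Among the BH3-only proteins, BAD led in level and held between 74.9% and 76.0% of the summed FPKM of the 7 in every library. BAD neutralises BCL-XL and BCL2 when it is not phosphorylated, and AKT is a kinase known to phosphorylate it. BAD (ENSG00000002330, chromosome 11, 64269830 to 64284704, minus strand) had 146 and 177 CPM in erianin, against 144 and 139 CPM in DMSO. The groups did not overlap, but erianin replicate 1 lay within 3 CPM of DMSO replicate 1. The log2 fold change was 0.19 ± 0.11 (SE, adjusted p = 0.586, edgeR). BID, which caspase 8 cleaves to link the receptor and mitochondrial pathways, had a log2 fold change of 0.16 ± 0.14 (SE). BCL2L11, the BIM gene and a known FOXO target, had 5.46 and 5.36 CPM in erianin, against 6.65 and 5.43 CPM in DMSO. Only DMSO replicate 1 stood apart from the rest. PMAIP1, which encodes NOXA, a p53 and stress-response target, had 13.2 and 14.4 CPM in erianin, against 15 and 10.9 CPM in DMSO. The erianin libraries both lay between the DMSO libraries. BIK and BMF were low, with log2 fold changes of 0.13 ± 0.28 and -0.44 ± 0.41 (SE). HRK, a BH3-only gene best known from neurons, had 7 and 12 counts in erianin and 0 in both DMSO libraries. Against a floor of 3 counts per DMSO library this was 3.48-fold higher in erianin, a value that had no test. The floor stands in for the 0 counts only. The counting error of the 7 and 12 counts and the spread between libraries are not covered.

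**Figure D2:**
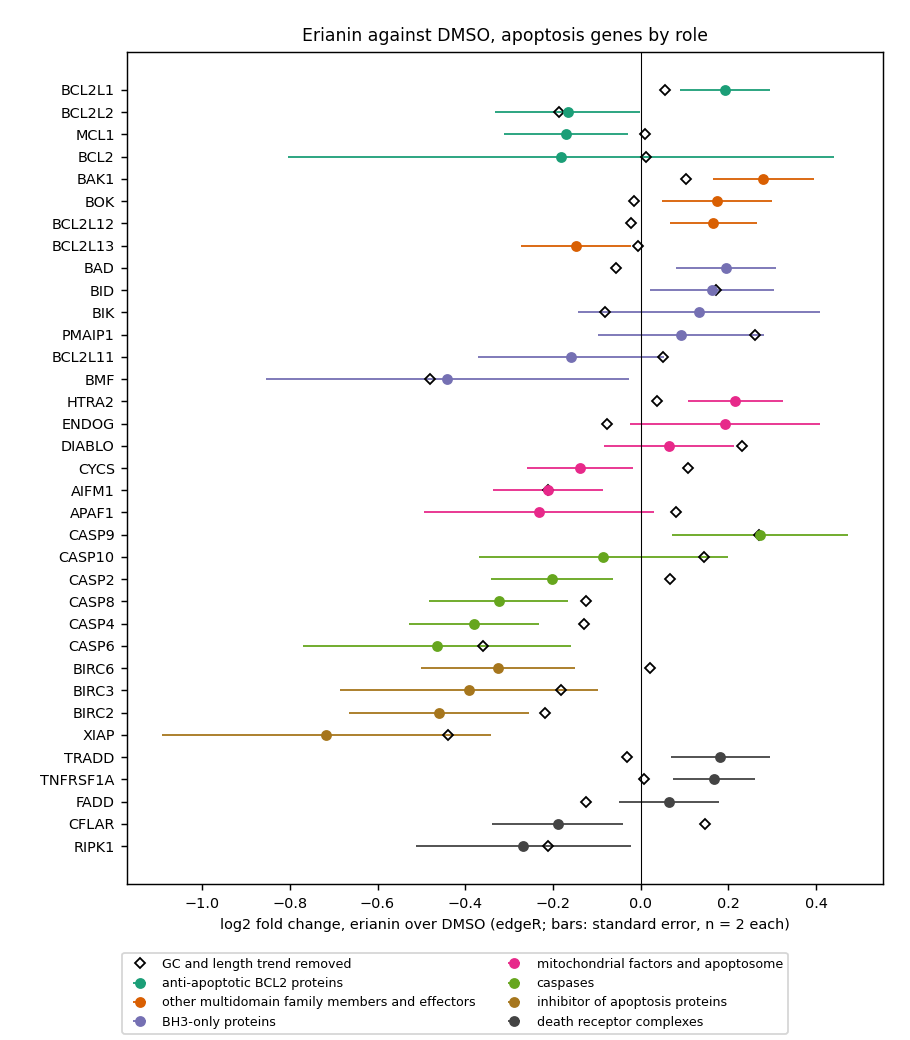
Log2 fold change of erianin over DMSO (edgeR) for each of 35 apoptosis genes, grouped by role and ordered within it; filled circles with bars are the value and its standard error (n = 2 libraries each), and open diamonds are the value after an offset for transcript GC content and length. The 4 IAP genes and 5 of 6 caspases lie left of 0; the circles have a median of -0.15 and the diamonds one of -0.01.

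The factors that act after the mitochondrial membrane opens had values on either side of 0. AIFM1, a flavoprotein released to the nucleus in cell death, had the highest CPM of this set as a mean over the 4 libraries, though CYCS was above it in both erianin libraries and HTRA2 in the second. AIFM1 (ENSG00000156709, chromosome X, 130129362 to 130165887, minus strand) had 69.2 and 57.1 CPM in erianin, against 75.2 and 71.1 CPM in DMSO. The erianin libraries were the lower ones, with a log2 fold change of -0.21 ± 0.13 (SE, adjusted p = 0.590, edgeR). HTRA2, a protease that antagonises IAPs, had 67.6 and 73.9 CPM in erianin, against 60.4 and 61.4 CPM in DMSO. The DMSO libraries were within 2% of each other and below both erianin libraries, with a log2 fold change of 0.22 ± 0.11 (SE, adjusted p = 0.575, edgeR). CYCS, the cytochrome c gene, had 70.1 and 59.3 CPM in erianin, against 73.5 and 68.9 CPM in DMSO, and the groups overlapped. DIABLO, the other mitochondrial IAP antagonist, and ENDOG, a nuclease, had log2 fold changes of 0.06 ± 0.15 and 0.19 ± 0.22 (SE). APAF1, the scaffold of the apoptosome, was low throughout, at 2.61 and 2.43 CPM in erianin and 3 and 2.92 CPM in DMSO.

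Caspases are the proteases that carry out the death programme or, in the case of CASP4, sense bacterial lipopolysaccharide and drive pyroptosis. Of the 6 caspase genes 5 lay below 0 on the log2 scale, and the median fold change of the set was -0.26. CASP4 (ENSG00000196954, chromosome 11, 104942866 to 104969436, minus strand) was the highest of them in level. It had 50 and 38.1 CPM in erianin, against 57.8 and 56.9 CPM in DMSO. The DMSO libraries were nearly equal and both erianin libraries were below them. The log2 fold change was -0.38 ± 0.15 (SE), with an unadjusted p of 0.0336 and an adjusted p of 0.575 (edgeR). CASP8, the initiator at death receptors, had 20.5 and 17 CPM in erianin, against 24.5 and 22.5 CPM in DMSO. Again both erianin libraries were the lower ones, with a log2 fold change of -0.32 ± 0.16 (SE, adjusted p = 0.575, edgeR). CASP2, an initiator linked to the PIDDosome, had 21.1 and 20.1 CPM in erianin, against 24.1 and 23.3 CPM in DMSO. CASP9, the initiator of the apoptosome, was the exception, with 22.5 and 30.9 CPM in erianin and 19.2 and 25 CPM in DMSO. In each group replicate 2 was the higher, and the groups overlapped. CASP6, an executioner, had 3.27 and 3.19 CPM in erianin and 3.25 CPM in DMSO replicate 2, so its log2 fold change of -0.47 ± 0.31 (SE) came from the 5.65 CPM of DMSO replicate 1. CASP10, a relative of caspase 8, was at -0.08 ± 0.28 (SE) on the same scale.

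The 4 listed IAP genes all lay below 0 on the log2 scale, and their median fold change was -0.43. BIRC6 (ENSG00000115760, chromosome 2, 32357028 to 32618899, plus strand), which encodes a giant ubiquitin ligase that restrains caspases, had the most counts of the 4, at 12.2 and 9.99 CPM in erianin, against 14.8 and 13 CPM in DMSO. Its groups did not overlap, and its log2 fold change was -0.32 ± 0.18 (SE, adjusted p = 0.576, edgeR). BIRC2, which encodes cIAP1, a ubiquitin ligase of TNF receptor complexes, had 6.61 and 6.73 CPM in erianin, against 7.85 and 10.5 CPM in DMSO. The erianin libraries were nearly equal and below both DMSO libraries, which differed from each other, and the log2 fold change was -0.46 ± 0.21 (SE, adjusted p = 0.575, edgeR). XIAP, which inhibits caspases by direct binding, had 3.86 and 1.98 CPM in erianin, against 3.68 and 5.95 CPM in DMSO. Erianin replicate 1 lay inside the DMSO range, and the log2 fold change was -0.72 ± 0.38 (SE, adjusted p = 0.576, edgeR). BIRC3, which encodes cIAP2 and is a known NF-kB target, had 3.66 and 2.36 CPM in erianin, against 3.58 and 4.33 CPM in DMSO, and the groups overlapped. Per length these 4 IAP genes were low, with a summed level of 3.59 and 2.58 FPKM in erianin and 4.57 and 5.41 FPKM in DMSO. BIRC5, the survivin gene, is of the same family but not of the list, and is named here after its value was seen; it was not low. It had 35.5 and 34.6 FPKM in erianin, against 35.5 and 40.2 FPKM in DMSO, and a log2 fold change of -0.0017 ± 0.11 (SE).

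Of the genes of death receptor complexes, TNFRSF1A led in level, as given above. TNFRSF1A (ENSG00000067182, chromosome 12, 6328757 to 6342114, minus strand) had 441 and 477 CPM in erianin, against 399 and 418 CPM in DMSO, with no overlap and a log2 fold change of 0.17 ± 0.09 (SE, adjusted p = 0.579, edgeR). TRADD, the adaptor of this receptor, had 55.7 and 61.1 CPM in erianin, against 51 and 51.9 CPM in DMSO, also with no overlap. FADD, the adaptor that recruits caspase 8, had 98.9 and 116 CPM in erianin, against 98.4 and 107 CPM in DMSO, and the groups overlapped. CFLAR, which encodes FLIP, the inhibitor of caspase 8 at the receptor, had 24.5 and 24.3 CPM in erianin, against 25.2 and 30.4 CPM in DMSO. Its erianin libraries and DMSO replicate 1 were close together. RIPK1, the kinase between NF-kB signalling and cell death, had 12.4 and 7.97 CPM in erianin, against 14 and 10.5 CPM in DMSO. Replicate 1 was the higher library in each group, and the groups overlapped.

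The direction of a gene's difference went with the GC content of its transcript, a property the list was not chosen by. Of the 11 genes whose longest annotated transcript has a GC content of at least 55%, 11 lay above 0 on the log2 scale, between 0.07 and 0.28, and their median was 0.18. Among them are BCL2L1, BAK1, BOK, BAD, HTRA2, TNFRSF1A and TRADD. Of the 11 below 45%, 10 lay below 0, and the median of the 11 was -0.32. They include CASP4, CASP8, CASP2, APAF1, CFLAR and the 4 IAP genes, and the exception was PMAIP1. Without erianin replicate 2 the 11 of 11 became 7 of 11, and with scaling by totals alone 10 of 11, with FADD at -0.04. Of the 13 genes in between, 3 lay above 0. The limits of 45% and 55% were chosen after the values were seen, so these counts depend in part on that choice. Just outside the upper limit BMF, at 54.8%, had -0.44, and just inside it BIK, at 56.0%, had 0.13. Just above the lower limit MCL1, CASP6 and DIABLO, all at 45.1%, had -0.17, -0.47 and 0.06, and just below it CFLAR, at 44.1%, had -0.19. All genes tested showed the same direction, with a median of 0.14 over 5234 genes at 55% or more and of -0.26 over 5612 genes below 45%. Over the 35 genes, which share their 4 libraries, Spearman's correlation of fold change with GC content was 0.742, and it was 0.428 over 16707 genes.

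To show what this difference in composition looks like, 90 bases from the middle of the coding sequence are given, 5′ to 3′ with G and C in capitals, for the members with the highest and the lowest transcript GC content, ENDOG (67.8%) and BIRC3 (34.8%). ENDOG lies on GRCh38 chromosome 9, 128818474 to 128822677, plus strand, and BIRC3 on chromosome 11, 102317450 to 102339403, plus strand. Both stretches are exonic and come from GENCODE release 29, ENDOG from coding positions 401 to 490 of 891 and BIRC3 from 862 to 951 of 1812.
ENDOG: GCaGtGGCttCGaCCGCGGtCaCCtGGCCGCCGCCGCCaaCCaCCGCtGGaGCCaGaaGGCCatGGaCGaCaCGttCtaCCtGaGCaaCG
BIRC3: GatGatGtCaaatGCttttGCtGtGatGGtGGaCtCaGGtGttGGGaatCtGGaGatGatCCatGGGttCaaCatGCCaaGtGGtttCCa
G and C make up 67.8% of the ENDOG stretch and 46.7% of the BIRC3 stretch. The log2 fold change was 0.19 for ENDOG and -0.39 for BIRC3.

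**Figure D3:**
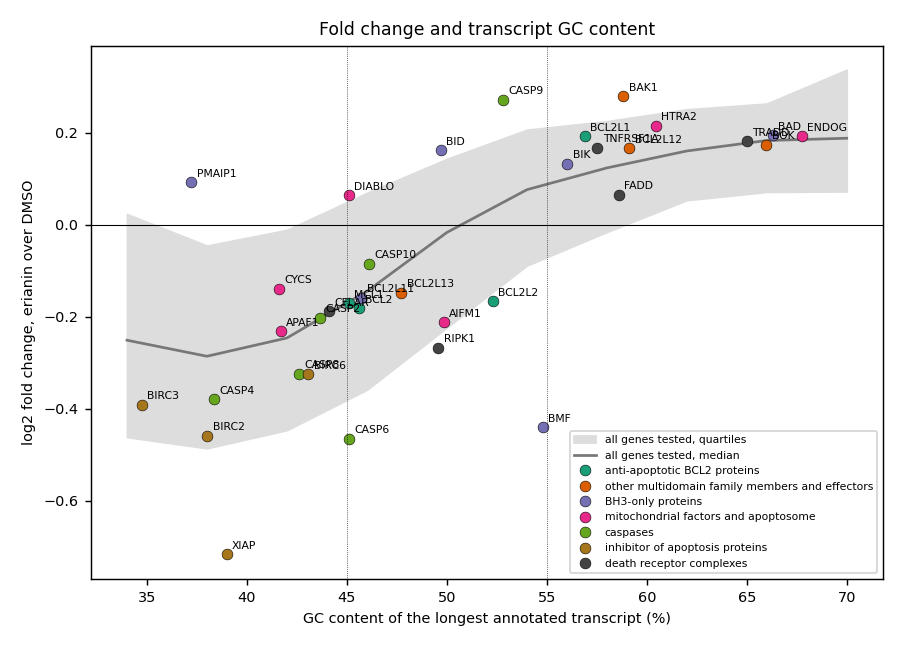
Log2 fold change of erianin over DMSO against the GC content of the longest annotated transcript; points are 35 apoptosis genes coloured by role, the grey line is the median of all genes tested in steps of 4 percentage points and the band spans their quartiles. The points climb with the grey line, from BIRC3 and XIAP at the lower left to BAK1 and BAD at the upper right.

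The composition of the promoter did not show the same relation. RefSeq promoters (250 bases before to 50 after a start) were found for 32 of the 37 symbols, 30 of them tested. Over these 30 genes, Spearman's correlation of fold change was 0.079 with the GC content of the promoter, averaged over a gene's listed starts, and 0.716 with that of the transcript. The promoters of BAK1 and CASP4 are shown, since these were the 2 genes with an unadjusted p under 0.05. They are written 5′ to 3′ on the gene's minus strand, from RefSeq on GRCh38.p14, with the GC box GGGCGG in capitals on either strand. The BAK1 promoter is at chr6:33580227-33580526 and the CASP4 promoter at chr11:104968525-104968824.
BAK1: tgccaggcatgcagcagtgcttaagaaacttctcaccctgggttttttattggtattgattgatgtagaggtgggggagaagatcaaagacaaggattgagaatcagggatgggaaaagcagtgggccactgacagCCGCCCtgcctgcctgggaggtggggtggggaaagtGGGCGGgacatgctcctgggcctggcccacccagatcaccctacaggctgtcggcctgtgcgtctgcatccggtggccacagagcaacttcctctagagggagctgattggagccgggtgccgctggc
CASP4: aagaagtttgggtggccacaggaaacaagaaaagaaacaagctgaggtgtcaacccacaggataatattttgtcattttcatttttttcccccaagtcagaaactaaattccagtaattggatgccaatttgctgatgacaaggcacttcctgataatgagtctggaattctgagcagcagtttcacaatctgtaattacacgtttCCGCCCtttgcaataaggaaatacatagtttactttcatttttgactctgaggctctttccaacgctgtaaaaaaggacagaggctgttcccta
The GC content is 58.7% in the BAK1 promoter, with 2 GC boxes, and 39.7% in the CASP4 promoter, with 1. Of the 59 listed promoters of the apoptosis genes, 66.1% hold this motif, while the motif is present in 45% of all 35116 promoters listed. These shares count promoters, so a gene with several starts, such as BID with 5, counts more than once. The 35116 were not limited to genes tested here, and the difference in shares was not tested. A match in the letters does not show that a factor binds there.

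The libraries did not share this pattern equally. Against the DMSO mean, the 11 GC-rich apoptosis genes had median log2 differences of 0.09 in the first erianin library and 0.29 in the second. The 11 GC-poor ones had -0.18 in the first and -0.43 in the second. All genes tested had 0.07 and 0.22 at high GC content in the same libraries, and -0.11 and -0.40 at low GC content. After an offset for GC content and transcript length, fitted per library, the median of the 35 genes was -0.01 in place of -0.15. The 11 GC-rich genes were then above 0 in 4 cases and the 11 GC-poor ones below 0 in 5.

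With this offset, 0 of 35 genes passed and none had an unadjusted p under 0.05, against 0.0299% and 6.69% of 16707 genes. BAK1 then had a log2 fold change of 0.10, CASP4 one of -0.13, BCL2L1 one of 0.05, TNFRSF1A one of 0.01 and HTRA2 one of 0.04. MCL1 was at 0.01 and BIRC6 at 0.02. AIFM1 was at -0.21, CASP9 at 0.27, BID at 0.17 and BMF at -0.48, each close to its value without the offset. XIAP was at -0.44, BIRC2 at -0.22 and BIRC3 at -0.18. CASP2 was at 0.07 and CASP10 at 0.14. PMAIP1, which is GC-poor, was at 0.26. An offset of this kind removes whatever moves with GC content, so a response that itself followed GC content cannot be told apart from a property of the libraries.

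**Figure D4:**
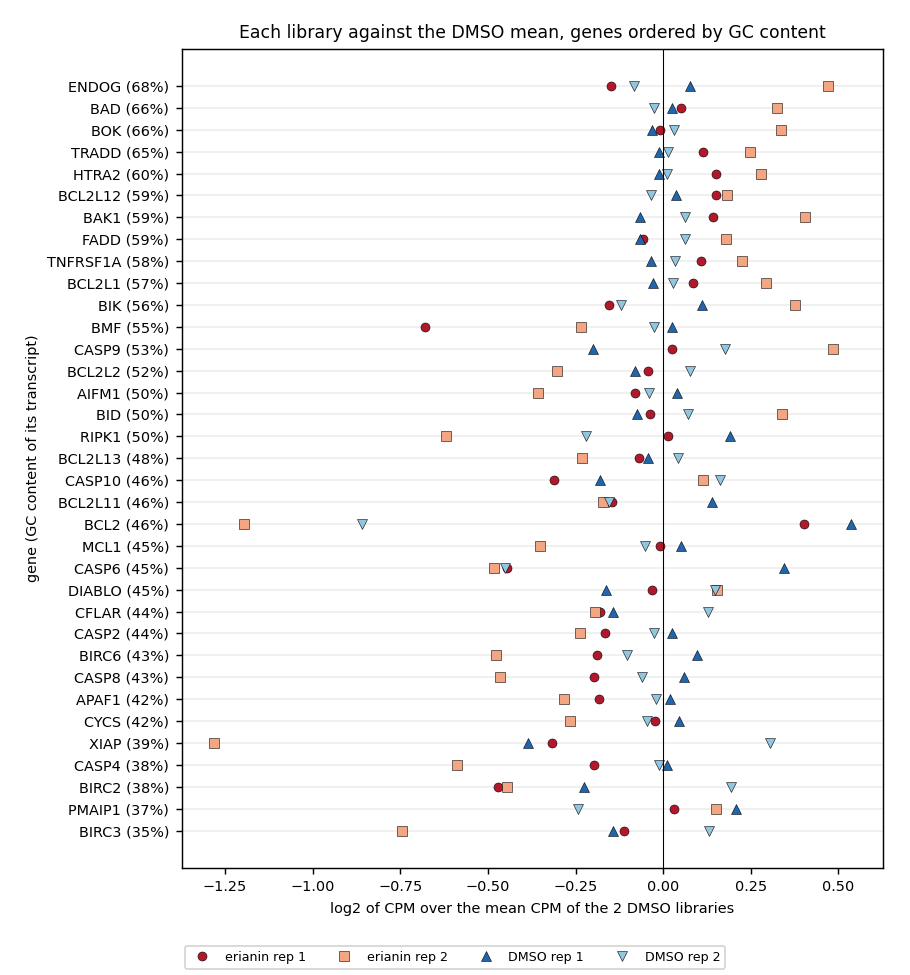
Log2 of each library's CPM over the mean CPM of the 2 DMSO libraries for 35 apoptosis genes, ordered from GC-rich at the top to GC-poor at the bottom; circles and squares are erianin, triangles DMSO. Erianin replicate 2 lies right of 0 for the GC-rich genes and mostly left of 0 for the GC-poor ones; the medians are 0.29 and -0.43 in that library, against 0.09 and -0.18 in erianin replicate 1.

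The deposited tables hold 1 to 18 rows for each of these genes, 275 rows in all, with no transcript names. The values above are sums over rows. In 9 of the 35 genes the row with the largest total held at least 90% of the gene's counts in every library, among them BAK1, BOK, CYCS, APAF1, PMAIP1, BIRC2 and FADD, which has a single row. In 8 of the 35 its share differed by over 25 percentage points between the DMSO libraries, and in 2 it did so between the erianin libraries. The leading rows of BIRC6, RIPK1, BCL2L11 and XIAP were listed at 0 in DMSO replicate 2 and held most of the gene's counts in DMSO replicate 1. For RIPK1 the leading row held 90.6% and 89.4% of the counts in erianin, against 92.6% and 0% in DMSO. MCL1 had 73% and 90.4% of its counts in its leading row in erianin, against 26.3% and 63.3% in DMSO. CASP4 had 51% and 36.1% there in erianin, against 20.3% and 24.6% in DMSO. With that row alone in place of the sum, the log2 fold change of CASP4 was 0.62, not -0.38. For MCL1 it was 0.71, not -0.17. The leading row of CASP4, with 4034 counts in total, was barely ahead of rows with 3891 and 3828. The row with 3891 went the other way, at 602 and 193 counts in erianin and 1676 and 1420 in DMSO. The row with 3828 had 711 and 1043 counts in erianin and 1270 and 804 in DMSO. Differences between the groups in the shares of rows were not tested. The FPKM of a gene depends on which rows hold its counts, and BIRC3 had 0.490 and 0.270 FPKM in erianin, against 1.37 and 0.600 FPKM in DMSO.

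**Figure D5:**
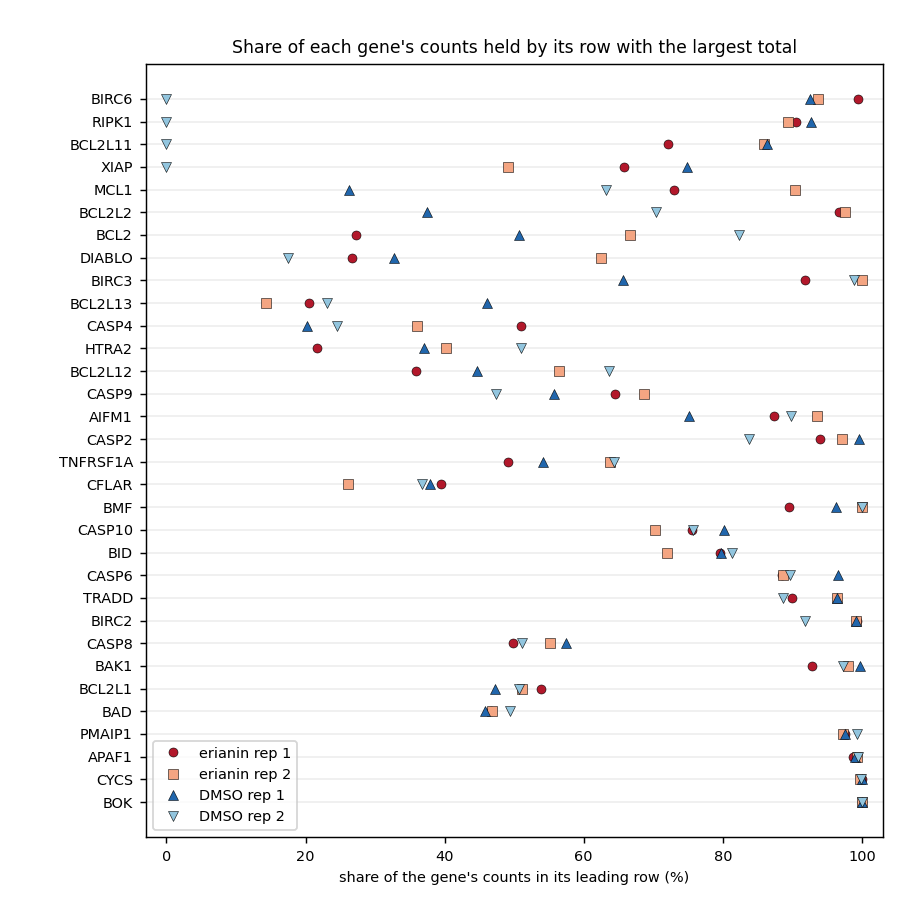
Share of each gene's counts that fell in its row with the largest total, in percent, for 32 apoptosis genes with more than 1 row, ordered by the range of that share; each symbol is 1 library. BIRC6, RIPK1, BCL2L11 and XIAP sit at 0 in DMSO replicate 2 and far above it elsewhere, while BOK, CYCS and APAF1 stay near 100% in every library.

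Further genes of the pathway were read from the same fit. Of 76 other apoptosis genes, among them the TRAIL receptors, death ligands and necroptosis and pyroptosis genes, 69 were tested and 0 passed (edgeR, adjusted p), against the 0.041% of all genes. At an unadjusted p under 0.05 there were 6, or 8.7% against the 8.1% of all genes, and all 6 were lower in erianin. Lower was also the more common direction over all genes at this mark, with 5.89% lower and 2.21% higher. The 6 were CASP8AP2, TNFRSF10C, BCLAF1, USP9X, BAG4 and MLKL, the first pair of them low in level and named after their values were seen. TNFRSF10C passed the filter on low counts only through the DMSO libraries, where it was higher, so its p and its direction give no support. CASP8AP2, which encodes the caspase 8 binding protein FLASH, had 1.02 and 1.13 CPM in erianin, against 2.65 and 2.64 CPM in DMSO. Its log2 fold change was -1.30 ± 0.31 (SE, adjusted p = 0.575, edgeR). TNFRSF10C, a decoy receptor for TRAIL whose locus overlaps another gene, had 0 counts in both erianin libraries and 15 in each DMSO library. Against a floor of 3 counts per erianin library this was 4.63-fold lower in erianin. Here too the floor stands in for the 0 counts only. The counting error of the 15 counts and the spread between libraries are not covered. The median of the 69 was -0.09, with 27 above 0 and 42, or 60.9%, below. Over all genes tested 51.3% lay below 0. DESeq2 called 0 of the 69 as well, where it called 0.093% of all genes. With limma-voom no gene of any kind passed, so its 0 says nothing about these genes. Without erianin replicate 1, 21 of 69 passed, or 30.4%, against the 17.5% of all genes in that fit. BCLAF1, a nuclear protein named for its binding to BCL2 relatives, had 24.3 and 18.7 CPM in erianin, against 30.2 and 30.5 CPM in DMSO, a log2 fold change of -0.50 ± 0.16 (SE, adjusted p = 0.575, edgeR). USP9X, a deubiquitinase that stabilises MCL1, had 19 and 13.9 CPM in erianin, against 24.8 and 22.1 CPM in DMSO. BAG4, a chaperone cofactor that silences TNFR1, had 8.02 and 6.33 CPM in erianin, against 11.3 and 9.46 CPM in DMSO. MLKL, the executioner of necroptosis, had a log2 fold change of -0.47 ± 0.20 (SE). Next in order, with unadjusted p of 0.0506 and 0.0556, came HUWE1, a ubiquitin ligase of MCL1, and HMGB1, a danger signal released by dying cells, with log2 fold changes of -0.28 ± 0.12 and -0.32 ± 0.14 (SE). The loci of USP9X and HMGB1 also overlap other genes. BCLAF1, USP9X, BAG4, MLKL, HUWE1 and HMGB1 were picked by their small p, which favours groups that do not overlap. For all of them the erianin values lay below the DMSO values, as for 24.4% of all genes tested. Erianin replicate 2 was the lowest library for each. The transcripts of BCLAF1, HMGB1, BAG4 and USP9X have GC contents of 36.4%, 37.9%, 40.0% and 40.5%, in the class below 45%. Those of MLKL and HUWE1, at 46.9% and 50.6%, lie outside it.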

How the data were processed

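RNA sequencing libraries of SW1990 cells were grouped by their titles, 2 with erianin and 2 with DMSO. The authors' count table gives whole-number estimated counts in 107429 rows for 25798 gene IDs, and their FPKM values were deposited for the same rows. The tools named in the submitters' processing notes are fastp, STAR, StringTie 2.2.1 and featureCounts 2.0.1, on GRCh38, without saying what each did. The sources used here give neither annotation nor strandedness. Reads of overlapping or antisense genes may therefore be mixed, which concerns BCL2, BCL2L2, DIABLO and CFLAR by their annotation. Plain counts per gene had been planned for. As genes have several rows, rows were summed per gene ID and used as estimated counts.

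Testing used edgeR 4.0.16 in R 4.3.3: TMM factors, filterByExpr with a minimum count of 10 (17090 genes kept, 8708 removed), a quasi-likelihood F test on the group alone (2 residual degrees of freedom) and Benjamini-Hochberg adjustment over all genes, with 0.05 as threshold. The SE was taken as log2 fold change over the root of F. CPM values use TMM-adjusted library sizes. GC content and 1-based positions came from GENCODE release 29 on GRCh38, from the longest transcript. The GC and length offset was a natural spline fit per library, with 5 degrees of freedom for each and genes of mean log2 CPM 3 or more. Alternatives, 17 in all, included DESeq2 1.42.0 and limma 3.58.1, and the edgeR step was tested on simulated data.

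The genes and lists were chosen with earlier results of these data known, and the GC limits of 45% and 55% after seeing the values. Full statistics were given for genes with an unadjusted p under 0.05 and for the gene of highest mean CPM in each role, and other genes by their values. Of the other apoptosis genes, the 6 with the smallest p at mean log2 CPM 1 or more were named.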

Additional observations from a re-analysis of the deposited data

How the results depend on the processing

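With 2 libraries a group, 1 library can decide a count. The number of all genes past the threshold was 7 with edgeR, between 5 and 10 with other factors, filters or the GC and length offset, 24 with DESeq2, 0 with limma-voom, 2 with library totals alone, 2 with either FPKM pseudocount (0.1 and 1) and 0 with the largest row only. Leaving out 1 library gave 24 to 3166 genes, 0 to 11 of the 35 apoptosis genes and 0 to 21 of the other apoptosis genes; each maximum came without erianin replicate 1. The 11 were AIFM1, BAD, BAK1, BCL2L1, BID, BOK, CASP4, CASP8, MCL1, TNFRSF1A and XIAP. The other settings called 0 of the 35.

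With the replicate number as a replicate block, 334 of 17090 genes passed, or 1.95% (66 higher, 268 lower). Among the 35 apoptosis genes 0 passed. Among the 69 other apoptosis genes 1 passed, CASP8AP2, or 1.45%, which is not above the share of all genes. The labels give no pairing, and the deviations of the replicate 1 libraries correlated by 0.0517. With block and offset together 18 genes passed.

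The median of the 35, -0.15, was -0.24 with library totals alone, -0.007 with the offset, -0.0061 with offset and block, -0.036 with FPKM + 1, 0.087 with the largest row only, and -0.21 to -0.048 without 1 library. Of the 11 GC-rich genes, 4 lay above 0 with the offset, with or without the block, and 7 to 11 without 1 library; of the 11 GC-poor, 5 lay below 0 with the offset, with or without the block.

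Signs that turned were all of log2 fold changes that did not pass the test, and the cause was not tested. With the offset (in brackets with offset and block, where different) FADD -0.12, BIK -0.080 (-0.079), ENDOG -0.076 (-0.082), BAD -0.057, TRADD -0.032 (-0.033), BCL2L12 -0.022 (-0.023), BOK -0.016 (-0.017), MCL1 0.0092 (0.0081), BCL2 0.012 (0.010), BIRC6 0.021 (0.023), BCL2L11 0.052 (0.053), CASP2 0.068 (0.064), APAF1 0.081 (0.077), CYCS 0.11, CASP10 0.14 (0.12) and CFLAR 0.15 had turned. Library totals alone gave FADD -0.038, DIABLO -0.037 and PMAIP1 -0.011. FPKM + 0.1 gave FADD -0.037 and CASP10 0.18. FPKM + 1 gave FADD -0.036 and CASP10 0.10. The largest row only gave HTRA2 -0.27, BCL2L12 -0.046, XIAP 0.36, RIPK1 0.51, BCL2L11 0.58, CASP4 0.62, BIRC6 0.66, BCL2L2 0.66 and MCL1 0.71. Without 1 library the ranges were BCL2 -1.20 to 0.68, BID -0.036 to 0.33, BIK -0.15 to 0.37, BOK -0.0061 to 0.33, CASP10 -0.31 to 0.10, DIABLO -0.084 to 0.23, ENDOG -0.15 to 0.46, FADD -0.056 to 0.17, PMAIP1 -0.12 to 0.33 and RIPK1 -0.63 to 0.015.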
